A study of Mus musculus with 12 samples.

Results

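The 10 genes described here belong to the endoplasmic reticulum (ER) stress response, also called the unfolded protein response. They were chosen by symbol and not by their values, and they were read in all 12 libraries of the series by matching the Ensembl identifiers in the deposited files to GENCODE M21. All 10 of them were found among the 46078 genes listed, and all 10 passed the filter on low counts, which left 15823 genes for testing. The lowest count of any of the 10 in any library was 111, for Ddit3. The libraries were made from total RNA of epithelium scraped from the proximal ileum of male C57BL/6 mice. Mice of 4 groups, 3 per group, were gavaged with sesame oil vehicle or with TCDD (the dioxin 2,3,7,8-tetrachlorodibenzo-p-dioxin) at 3, 10 or 30 µg/kg, called here the low, middle and high dose. TCDD activates the aryl hydrocarbon receptor (AhR). Dosing was repeated every 4 days for 7 administrations from 28 days of age, and tissue was taken at 56 days of age. All 4 groups shared the sesame oil, the strain, the sex and, as the study states, the sampling in the first hours of the light phase. The gene counts summed to between 11695887 and 22180274 per library.

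The ER is where secreted and membrane proteins are folded. When unfolded proteins accumulate, sensors in its membrane activate the transcription factors ATF6, XBP1 and ATF4. These raise the chaperones and oxidoreductases that fold proteins, the components that return misfolded proteins to the cytosol for degradation and, under lasting stress, the factor CHOP. In the intestine the load is greatest in secretory cells, the goblet, Paneth, enteroendocrine and plasma cells. Hspa5 encodes BiP, the main HSP70 chaperone of the ER lumen, and Hsp90b1 encodes its HSP90 counterpart GRP94. Sdf2l1 encodes a lumenal protein that works in a complex with BiP and its co-chaperones. Pdia4 and Pdia6 encode protein disulfide isomerases, which make and rearrange disulfide bonds. Dnajb9 encodes ERdj4, a DnaJ co-chaperone of BiP, and Herpud1 encodes a membrane protein of ER-associated degradation. Xbp1, Atf4 and Ddit3 (CHOP) encode the transcription factors.

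Many of these genes are known to carry response elements close to the transcription start, so the 250 bases before the RefSeq start of each gene were searched on both strands in the GRCm38.p6 promoter table, in which all 10 were found. The ER stress response element was searched as CCAAT and CCACG with 9 bases between them, the element ERSE-II as ATTGG and CCACG with 1 base between them, the unfolded protein response element as TGACGTGG, and the C/EBP-ATF response element bound by ATF4 as TGATGNAA. The AhR core motif was searched as GCGTG. Stress elements were already known in many of these genes, so the shares of windows here and below are descriptions and test no enrichment. An ER stress response element was found in 3 of the 10 genes, against 0.113% of 32851 promoter windows of the same length. These matches are printed because they lie in Hspa5, Hsp90b1 and Pdia6, which followed each other closely across the libraries (Pearson's r of 0.88 to 0.92). The element did not mark all genes that varied with them. Pdia4 and Sdf2l1 held no ER stress response element, although each had r of 0.81 with Hspa5 and Pdia4 had r of 0.93 with Pdia6. Capitals mark the match, and 5 bases on each side are in lower case. Each is written in the direction of the motif. The Hspa5 match is on the plus strand at chr2:34772020-34772048. The Hsp90b1 matches are on the minus strand at chr10:86705633-86705661 and on the plus strand at chr10:86705528-86705556. The Pdia6 match is on the plus strand at chr12:17266486-17266514.
Hspa5: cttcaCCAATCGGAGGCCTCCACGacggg
Hsp90b1, first match: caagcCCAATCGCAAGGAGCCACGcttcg
Hsp90b1, second match: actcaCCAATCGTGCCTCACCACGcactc
Pdia6: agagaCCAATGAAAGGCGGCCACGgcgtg

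The Herpud1 window held an ERSE-II match, found in 0.0304% of all windows, and on the opposite strand a match to the C/EBP-ATF motif, found in 3.45%. It is printed whole because Herpud1 varied most between libraries of the same dose. It lies on the plus strand at chr8:94386179-94386428. The Sdf2l1 window is printed because Sdf2l1 was the only one of the 10 genes called at any dose. It lies on the minus strand at chr16:17132384-17132633. It held no match to the 4 stress motifs and 1 AhR core motif. Both are written in the direction of the gene with every match in capitals, which in Herpud1 are, in order, an AhR core, the C/EBP-ATF motif and the ERSE-II.
Herpud1: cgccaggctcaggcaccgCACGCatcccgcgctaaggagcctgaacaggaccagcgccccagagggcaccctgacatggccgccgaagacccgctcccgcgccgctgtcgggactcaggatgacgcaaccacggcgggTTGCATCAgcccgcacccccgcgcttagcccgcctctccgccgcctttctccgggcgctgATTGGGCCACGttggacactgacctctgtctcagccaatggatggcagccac
Sdf2l1: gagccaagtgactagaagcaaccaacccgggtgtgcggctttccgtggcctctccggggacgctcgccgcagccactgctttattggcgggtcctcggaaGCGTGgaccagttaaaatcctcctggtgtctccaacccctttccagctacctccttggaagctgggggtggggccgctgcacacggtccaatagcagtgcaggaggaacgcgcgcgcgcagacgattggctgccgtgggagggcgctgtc
The other 6 windows, those of Sdf2l1, Pdia4, Dnajb9, Xbp1, Ddit3 and Atf4, held none of the 4 stress motifs in these letters, which says nothing of elements elsewhere or in other spellings. The unfolded protein response element was found in 0 of the 10 genes and in 0.563% of all windows. The AhR core was found in 6 of the 10, namely Hsp90b1, Pdia6, Ddit3, Atf4, Herpud1 and Sdf2l1, against 28.2% of all windows. Both Hsp90b1 stress elements overlap an AhR core.

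Some facts of the libraries bear on the values below. Cyp1a1 and Cyp1b1, enzymes induced through the AhR, summed to 21.6 to 30.1 CPM (counts per gene, scaled to library size) in vehicle. Their sum was 25.9 to 145 CPM at the low dose, 918 to 1386 CPM at the middle dose and 2710 to 3344 CPM at the high dose. The labelled doses were thus checked at the middle and high doses but not in every library of the low dose. There replicates 1 and 2 were at 145 and 74.0 CPM, and replicate 3, at 25.9 CPM, lay among the vehicle values. The enterocyte markers were abundant, with Vil1 (villin) between 3031 and 3399 CPM in vehicle. Fabp6, the bile acid binding protein that defines ileal enterocytes, was at 0.0525 to 0.0926 CPM in vehicle, 0.144 to 0.306 CPM at the middle dose and 0 to 0.178 CPM at the high dose, and so was all but absent from the libraries labelled ileum in these 3 groups. It was at 22.9 to 38.3 CPM at the low dose. The part of this difference between groups in the results at the low dose was not tested. The libraries also differed in the phase of the circadian clock, given as a clock score, the mean standardised log2 CPM of 9 clock genes minus that of 4 genes of opposite phase. The score was between 1.2 and 2.14 in 6 libraries, between -2.28 and -1.71 in 5, and at -0.75 in the remaining 1, replicate 3 of the high dose. Scores above and below 0 occurred in every group, but at the high dose none was among the 5 lowest. This split lay within groups stated to share their sampling hours, and its source was not tested.

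Per exon length, the 10 genes spanned a wide range of levels in vehicle. Herpud1 had the highest mean, at 81.0 ± 40.0 RPKM (CPM divided by the GENCODE exon length in kilobases; SD, n = 3), and Hsp90b1 was next at 74.9 ± 5.94 RPKM. The Herpud1 libraries ran from 37.2 to 115.6 RPKM, so these 2 genes could not be ordered. Atf4 at 56.8 ± 7.19 RPKM, Hspa5 at 56.2 ± 3.61 RPKM and Xbp1 at 50.4 ± 8.15 RPKM followed and overlapped in order. Pdia4 stood below them at 26.2 ± 1.25 RPKM and Dnajb9 below it at 20.4 ± 3.86 RPKM. Sdf2l1 at 15.8 ± 0.585 RPKM and Pdia6 at 14.4 ± 1.5 RPKM overlapped. Ddit3 was lowest in every group, at 6.38 ± 0.272 RPKM in vehicle and 5.81 ± 0.0458 RPKM at the high dose. At the low and middle doses Hsp90b1 led, with means of 104.5 and 105.6 RPKM and no overlap with the next gene by mean, Hspa5. Herpud1 ran from 32.9 to 113.4 RPKM at the low dose and overlapped both. At the high dose Herpud1 (108.9 ± 22.0 RPKM) and Hsp90b1 (93.6 ± 5.73 RPKM) overlapped again. Sdf2l1 stood above Dnajb9 and Pdia6 by its mean at every TCDD dose, although its range overlapped the next gene each time.

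**Figure D1:**
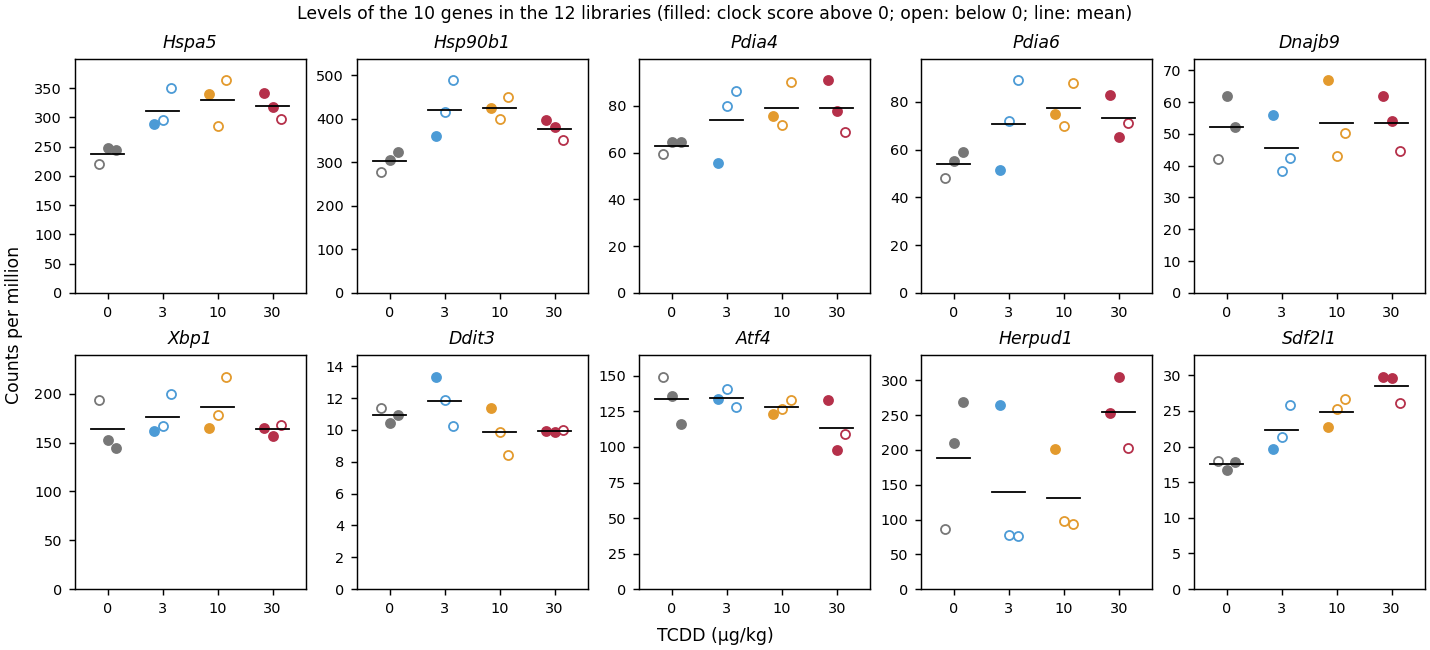
CPM of each of the 10 genes (y axes, from 0) in the 12 libraries by TCDD dose in µg/kg (x axes). Points are libraries, filled where the clock score is above 0 and open where it is below, and lines are means. Sdf2l1 rises from 16.8 to 17.9 CPM in vehicle to 26.1 to 29.8 CPM at the high dose, and the Herpud1 points split by clock score within the vehicle, low and middle dose groups.

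The comparisons with vehicle asked which of these genes responded to each dose. A gene was called when edgeR's quasi-likelihood test, fitted to all genes and all 12 libraries, gave a Benjamini-Hochberg (BH) adjusted p under 0.05 and a change of at least 1.5-fold. At the low and middle doses 0 of the 10 genes were called, where 0.228% and 0.613% of all genes tested were. At the high dose 1 of the 10 was called, Sdf2l1, against 3.97% of all genes. The same 4 genes, Hspa5, Hsp90b1, Pdia6 and Sdf2l1, were higher at each dose with an unadjusted p under 0.05, against 6.48% of all genes at the low dose, 7.99% at the middle dose and 11.6% at the high dose. The 3 comparisons share the vehicle libraries. The median log2 change of the 10 genes was 0.17, 0.26 and 0.33 at the low, middle and high doses, and that of all genes tested was 0.0017, -0.0096 and -0.0161. The libraries are bulk tissue, so fewer or more cells of a type and less or more RNA per cell cannot be told apart. Nothing in the labels says more of the animals behind the replicates, so the p-values measure the spread between these samples.

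**Figure D2:**
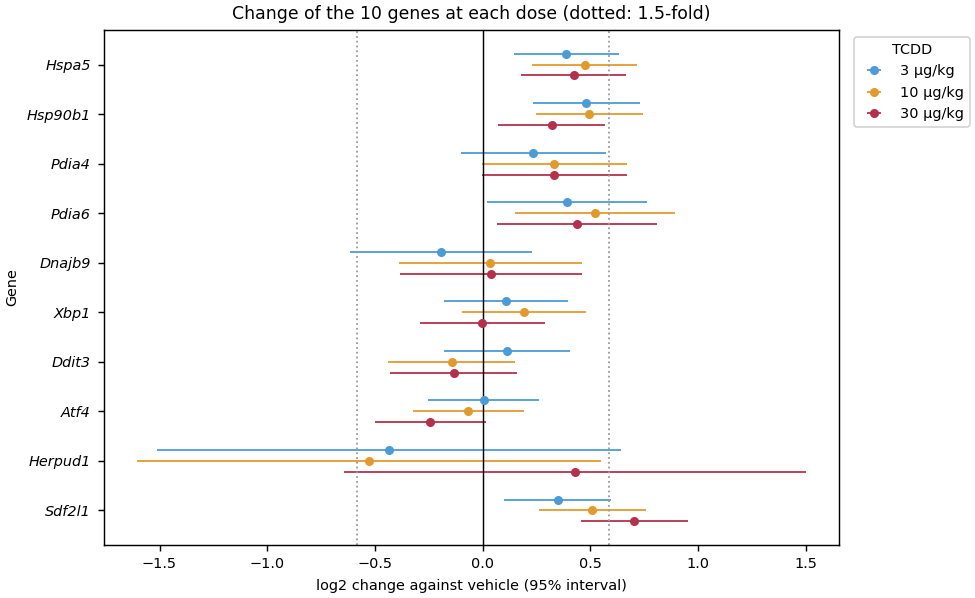
Log2 change of each gene against vehicle (x axis) at the low, middle and high doses, with 95% intervals from the edgeR fit; dotted lines mark 1.5-fold. Hspa5, Hsp90b1, Pdia6 and Sdf2l1 lie above 0 with their intervals at every dose, and the intervals of Herpud1 are the widest.

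Sdf2l1, the BiP complex component, rose with dose. It was at 17.9, 16.8 and 17.8 CPM in vehicle and at 19.6, 21.3 and 25.8 CPM at the low dose. At the middle dose it was at 22.7, 25.2 and 26.7 CPM, and at the high dose at 29.8, 29.7 and 26.1 CPM. Every treated library lay above every vehicle library, as it did for 8.58%, 11.9% and 14.2% of all genes in order of dose. The log2 change at the high dose was 0.70 (SE 0.11, 95% interval 0.46 to 0.95), a 1.63-fold rise with a BH adjusted p of 0.003036 by edgeR. At the middle dose it was 0.51 (SE 0.11, adjusted p = 0.07564) and at the low dose 0.35 (SE 0.11, adjusted p = 0.2915). A slope over the dose rank gave 0.68 over the whole range (SE 0.11, adjusted p = 0.003099), a test that called 3.29% of all genes. It was the only one of the 10 genes with an adjusted p under 0.05 in the test of any difference among doses, at 0.01163, where 6.78% of all genes passed. That p was above the threshold without vehicle replicate 2.

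Across the protein-coding genes tested the change at the high dose varied with exon length. The Sdf2l1 exons sum to 1108 nt. Protein-coding genes of 1000 to 2000 nt had a median log2 change of 0.17 at the high dose, where those of 4000 to 5000 nt had -0.02. With a trend on length and GC content removed, the Sdf2l1 change at the high dose was 0.54 (SE 0.12, adjusted p = 0.02002), under 1.5-fold and so not called, and the dose trend had an adjusted p of 0.05003. Leaving out each library in turn kept the call in 12 of 12 fits at the high dose.

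Hspa5 and Hsp90b1, the BiP and GRP94 genes, were higher in every treated library than in vehicle, but by less than 1.5-fold. Hspa5 was at 220, 248 and 245 CPM in vehicle, at 289, 295 and 350 CPM at the low dose, at 340, 286 and 363 CPM at the middle dose, and at 341, 317 and 298 CPM at the high dose. Its treated libraries did not overlap vehicle at any dose, as for 8.58%, 11.9% and 14.2% of all genes in order of dose. The log2 change was 0.39 (SE 0.11, adjusted p = 0.2505) at the low dose, 0.47 (SE 0.11, adjusted p = 0.08843) at the middle dose and 0.42 (SE 0.11, adjusted p = 0.04506) at the high dose. Only the last passed the adjusted p by edgeR, which 6.11% of all genes did there, and it held in 4 of the 12 fits that left out a library, with adjusted p between 0.0271 and 0.144. The change at the high dose was 1.34-fold.

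Hsp90b1 had a similar course. It was at 277, 305 and 324 CPM in vehicle, at 361, 415 and 489 CPM at the low dose, at 425, 400 and 451 CPM at the middle dose, and at 398, 381 and 353 CPM at the high dose. Again no treated library overlapped vehicle, against the same shares of all genes as for Hspa5. The high dose libraries lay below those at the middle dose, as did those of 13.5% of all genes. The log2 change was 0.48 (SE 0.11) at the low dose, 0.49 (SE 0.11) at the middle dose and 0.32 (SE 0.11) at the high dose, with edgeR adjusted p of 0.163, 0.0839 and 0.126. The difference between the high and middle doses was -0.17 (SE 0.11, adjusted p = 0.42). For Hspa5 that difference was -0.05 (SE 0.11, adjusted p = 0.848).

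The disulfide isomerases were more variable. Pdia6 was at 47.9, 55.2 and 59.0 CPM in vehicle, at 51.6, 71.9 and 88.9 CPM at the low dose, at 74.9, 69.7 and 87.8 CPM at the middle dose, and at 82.6, 65.2 and 71.2 CPM at the high dose. Its libraries at the middle and high doses lay above vehicle, as for 11.9% and 14.2% of all genes. At the low dose 1 library lay among the vehicle values. The log2 change was 0.39, 0.52 and 0.44 in order of dose (SE 0.17 each), with edgeR adjusted p of 0.415, 0.181 and 0.161. Pdia4 was at 59.4, 64.6 and 64.6 CPM in vehicle, at 55.5, 79.9 and 86.3 CPM at the low dose, at 75.7, 71.6 and 90.2 CPM at the middle dose, and at 90.8, 77.9 and 68.8 CPM at the high dose. It overlapped vehicle at the low dose alone, against the same shares of all genes as for Pdia6 at the other doses. Its log2 change was 0.23, 0.33 and 0.33 (SE 0.16 each), with adjusted p of 0.594, 0.320 and 0.236. In both genes the low library at the low dose was replicate 1. Without it the change at the low dose was 0.57 for Pdia6 and 0.40 for Pdia4, and the lowest adjusted p among the fits that left out a library was 0.0668 and 0.134.

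Replicate 1 of the low dose also differed from its group in cell type markers. The summed Paneth cell markers were at 716 CPM in it and at 1578 and 1821 CPM in the other libraries of that dose, and the proliferation markers were at 177 CPM against 359 and 400 CPM. In vehicle the Paneth sum was between 695 and 1065 CPM and the proliferation sum between 202 and 241 CPM. The enterocyte markers summed to 60037 CPM in low dose replicate 1 and to 41046 and 43477 CPM in the others of that dose. Its clock score was 1.66, where theirs were -1.71 and -1.81. The part of these differences in the Pdia4 and Pdia6 values was not tested.

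The 3 transcription factors gave no call at any dose. Xbp1, the factor of the IRE1 branch, was at 194, 153 and 144 CPM in vehicle, at 162, 167 and 200 CPM at the low dose, at 165, 178 and 218 CPM at the middle dose, and at 165, 157 and 168 CPM at the high dose. The groups overlapped throughout. The log2 change was 0.11, 0.19 and -0.00 (SE 0.13 each), with a 95% interval of -0.29 to 0.29 at the high dose. Gene counts do not separate the spliced from the unspliced form of Xbp1 mRNA, so its activation by IRE1 was not measured.

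Atf4, the factor of the PERK branch, is controlled largely through translation, which these counts do not show. It was at 150, 136 and 116 CPM in vehicle, at 134, 141 and 128 CPM at the low dose, at 123, 127 and 133 CPM at the middle dose, and at 133, 97.6 and 109 CPM at the high dose. All groups overlapped. The log2 change at the high dose was -0.24 (SE 0.12, 95% interval -0.50 to 0.02, adjusted p = 0.259).

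Ddit3, the factor of lasting stress, was the least abundant of the 10. It was at 11.4, 10.5 and 10.9 CPM in vehicle, at 13.4, 11.9 and 10.3 CPM at the low dose, at 11.4, 9.87 and 8.45 CPM at the middle dose, and at 9.96, 9.86 and 10.0 CPM at the high dose. The high dose libraries lay below vehicle without overlap, as did those of 12.6% of all genes. The log2 change there was -0.13 (SE 0.14, 95% interval -0.43 to 0.16), and the adjusted p was 0.612. Ddit3 overlaps Mars and Gm4189 on the opposite strand and a second annotated gene of the same name on its own strand. Reads falling in several of these genes may have been left out of its counts. Hsp90b1, Pdia6, Dnajb9 and Herpud1 also overlap annotated genes on the opposite strand, and on their own strand Hsp90b1 overlaps Gm15344 and Gm25745 and Pdia4 overlaps Mir704.

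Herpud1, the degradation component, spanned the widest range of the 10. It was at 86.7, 210 and 270 CPM in vehicle, at 265, 78.4 and 76.8 CPM at the low dose, at 201, 98.5 and 93.9 CPM at the middle dose, and at 253, 306 and 203 CPM at the high dose. Within the first 3 groups the libraries fell into a high and a low set. The 6 libraries with a clock score above 0 were all at 201 CPM or more, the 5 with the lowest scores were at 98.5 CPM or less, and the library with the intermediate score was at 203 CPM. Dose made no detectable difference, with a log2 change of -0.44 at the low dose, -0.53 at the middle dose and 0.43 at the high dose (SE 0.50, 0.50 and 0.49).

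A fit with the clock score as a covariate beside the 4 groups, whose score term was read after the values had been seen, tested this relation within dose groups. Herpud1 was higher by 0.35 log2 per unit of score (SE 0.04, edgeR adjusted p = 3.73e-05). Dnajb9, the ERdj4 co-chaperone, was higher by 0.13 (SE 0.02, adjusted p = 0.000516), and Xbp1 was lower, at -0.07 (SE 0.02, adjusted p = 0.0402). The terms of Herpud1 and Dnajb9 kept an adjusted p under 0.05 in all 12 fits that left out a library, and that of Xbp1 in 4 of them. These were 3 of the 10 genes, against 10.5% of all genes under the same threshold. Of the other 7 genes, the largest term in size was 0.04 (SE 0.03) for Ddit3, and that of Hspa5 was 0.01 (SE 0.02, adjusted p = 0.773).

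With the score in the fit, the SE of the Herpud1 change at the high dose went from 0.49 to 0.18. The change was then 0.55 (adjusted p = 0.0615), and that at the middle dose was 0.06 in place of -0.53. Dnajb9 was at 42.1, 61.8 and 52.1 CPM in vehicle, at 56.0, 38.4 and 42.3 CPM at the low dose, at 66.8, 43.0 and 50.3 CPM at the middle dose, and at 61.8, 54.0 and 44.6 CPM at the high dose. The groups overlapped at every dose. Its log2 change at the high dose was 0.04, with an SE of 0.20 without the score and 0.09 with it.

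**Figure D3:**
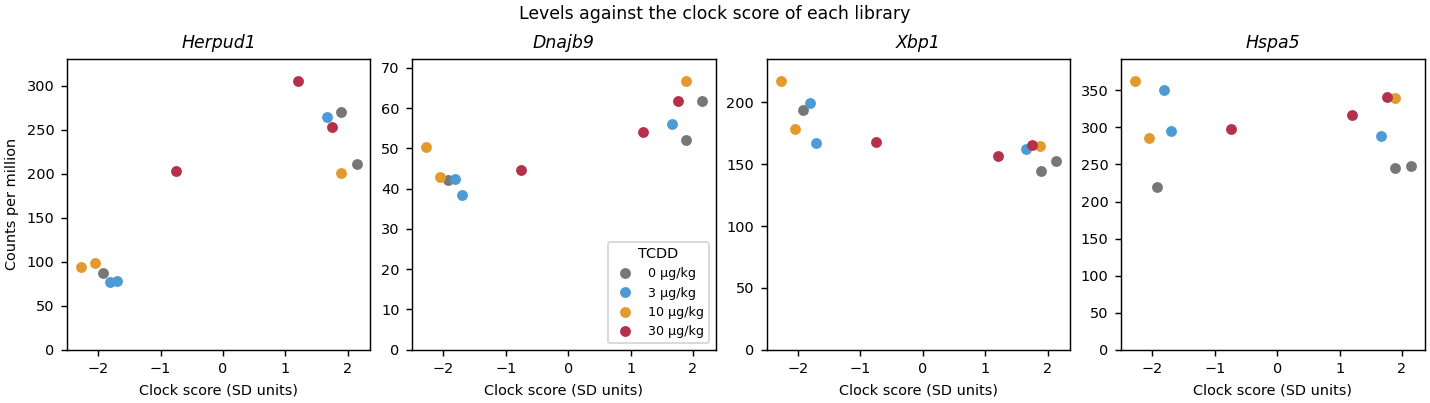
CPM (y axes, from 0) of Herpud1, Dnajb9, Xbp1 and Hspa5 against the clock score of each library (x axes, in SD units), coloured by TCDD dose. Herpud1 is at 76.8 to 98.5 CPM in the 5 libraries with scores below -1.7 and at 201 to 306 CPM in the others, and Hspa5 shows no such split.

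The 10 genes did not vary as 1 group. Across the 12 libraries Hspa5, Hsp90b1, Pdia4, Pdia6 and Sdf2l1 were alike, with Pearson's r of log2 CPM between 0.68 (Hsp90b1 and Sdf2l1) and 0.93 (Pdia4 and Pdia6). After the dose group means were taken out, r ran from 0.53 to 0.92 among these 5. These values are descriptions over 12 libraries that share dose groups and depth, and no test was made. Dnajb9 had r of 0.75 with Herpud1 and 0.19 with its binding partner Hspa5. Xbp1 ran against Herpud1 (r = -0.77). Ddit3 ran against each of the 5 chaperone and isomerase genes, with r between -0.66 and -0.33, and Atf4 was between -0.47 and -0.11 with them. With the dose group means taken out, r of Ddit3 with these genes ran from -0.78 to -0.55 and that of Atf4 from -0.17 to 0.20. Dnajb9 was then at 0.82 with Herpud1 and 0.43 with Hspa5, and Xbp1 stayed at -0.77 with Herpud1.

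**Figure D4:**
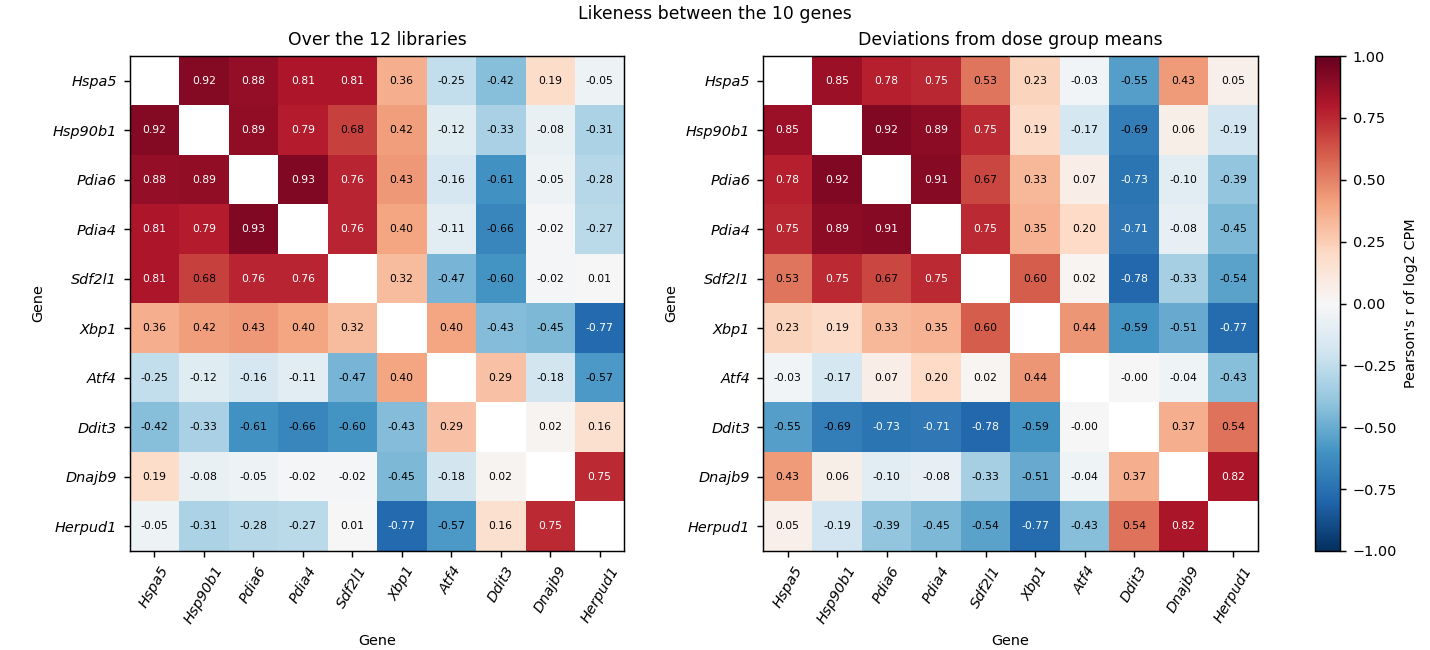
Pearson's r of log2 CPM between each pair of the 10 genes (colour and number) over the 12 libraries (left) and for deviations from dose group means (right). Hspa5, Hsp90b1, Pdia6, Pdia4 and Sdf2l1 form a block of positive values in both panels, and Herpud1 and Dnajb9 form a second pair.

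The genes outside the 10 most like Hspa5 across the 12 libraries were ranked among 9453 genes with a mean count of at least 100. The first was Ddost (r = 0.94), a subunit of the oligosaccharyltransferase that glycosylates proteins entering the ER. Pdia3 (0.92) is a disulfide isomerase, Dnajb11 (0.92) a BiP co-chaperone, Atp2a2 (0.91) the calcium pump that fills the ER, Sil1 (0.91) the nucleotide exchange factor of BiP, and Selenof (0.90) a lumenal selenoprotein. The remaining 4 were the proteasome subunits Psmc3 (0.93) and Psmb4 (0.91), the respiratory chain subunit Cox7a2 (0.91) and the translation factor subunit Eif3e (0.90). In a ranking that included the 10 genes, Hsp90b1 was 5th, Pdia6 17th, Sdf2l1 86th and Pdia4 89th of 9462. Xbp1 was 2069th, Dnajb9 3322nd, Herpud1 5212th, Atf4 6953rd and Ddit3 8146th.

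The other genes of the response were read from lists fixed with earlier results of these data known. The list of stress sensors and transducers holds the ER membrane sensors, the proteases that cut ATF6 and the cytosolic eIF2alpha kinases Eif2ak1, Eif2ak2 and Eif2ak4. It gave 0 calls of 10 tested at every dose, with a median log2 change of -0.01 at the high dose. The membrane sensors are named here outside the naming rule. At the high dose the log2 change of the IRE1 genes was -0.09 (SE 0.25) for Ern1 and 0.25 (SE 0.11, adjusted p = 0.188) for Ern2, the form found in gut epithelium and the highest of the list. It was -0.01 (SE 0.12) for Eif2ak3, which encodes PERK, -0.11 (SE 0.08) for Atf6 and -0.02 (SE 0.12) for Atf6b. The other genes of ER-associated degradation gave 0 calls of 17 at every dose, with a median of -0.02 at the high dose. The background share called at the high dose in either direction was 3.97%, as above.

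Of the other ER chaperones and co-chaperones, 3 of 18 tested were called higher at the high dose and 0 lower. Of all genes, 3.08% were called higher there and 0.891% lower. At the low and middle doses 0 of the 18 were called. Their median log2 change was 0.22 at the low dose, 0.25 at the middle dose and 0.25 at the high dose. Calr encodes calreticulin, a lectin chaperone, and was at 412, 457 and 476 CPM in vehicle and at 718, 683 and 628 CPM at the high dose (log2 change 0.59, SE 0.11, edgeR adjusted p = 0.00568). Manf encodes a secreted BiP cofactor and was at 69.7, 64.7 and 65.7 CPM in vehicle and at 112, 95.3 and 103 CPM at the high dose (0.63, SE 0.09, adjusted p = 0.00166). Fkbp2 encodes a prolyl isomerase and was at 26.6, 26.6 and 35.4 CPM in vehicle and at 43.2, 49.5 and 44.3 CPM at the high dose (0.63, SE 0.12, adjusted p = 0.0103). The groups did not overlap in any of the 3, as for 14.2% of all genes in the higher direction. With the length and GC trend removed 1 of the 18 was called, Manf, where 3.4% of all genes were. Fkbp2 was then at 0.44 (adjusted p = 0.0723), and Calr was at 0.57 (adjusted p = 0.00879), under 1.5-fold. The calls also depended on single libraries. Calr was not called without vehicle replicate 1 (0.54) or high dose replicate 1 (0.55), Manf without high dose replicate 1 (0.57), and Fkbp2 without vehicle replicate 1 (0.57), vehicle replicate 2 (0.56) or high dose replicate 2 (0.57).

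Of 13 disulfide exchange enzymes tested, 1 was called at the high dose, against 3.97% of all genes. The called enzyme was Agr2, the isomerase of mucin-producing cells. It was at 82.7, 101 and 88.6 CPM in vehicle and at 175, 157 and 148 CPM at the high dose (log2 change 0.82, SE 0.12, adjusted p = 0.00184). Of 14 genes of ER entry, 2 were called higher, against 3.08% of all genes. Both are small subunits of the Sec61 translocon. Sec61b was at 21.2, 25.7 and 23.4 CPM in vehicle and at 51.9, 47.5 and 48.6 CPM at the high dose (1.07, SE 0.10, adjusted p = 5.11e-05), and Sec61g rose by 0.75 (SE 0.15, adjusted p = 0.0106). The Sec61g call was lost without vehicle replicate 2 (adjusted p = 0.0607), vehicle replicate 3 (0.057) or high dose replicate 2 (0.0503).

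Of 25 targets of ATF4 and CHOP tested, 1 was called at the middle and at the high dose and 0 at the low dose. Of all genes, 0.613% were called at the middle dose and 3.97% at the high dose. The called target was Nupr1, a small stress-induced nuclear protein. It was at 4.40, 4.26 and 4.36 CPM in vehicle, at 7.13, 8.34 and 8.33 CPM at the middle dose and at 9.29, 13.2 and 13.2 CPM at the high dose. No library of either dose overlapped vehicle, as for 11.9% and 14.2% of all genes in the higher direction. The log2 change was 0.87 (SE 0.17, adjusted p = 0.0372) at the middle dose and 1.45 (SE 0.17, adjusted p = 0.000287) at the high dose. The call at the middle dose held in 10 of 21 alternative fits and that at the high dose in 21 of 21. The median of the list at the high dose was -0.11. With 0 to 3 calls a list, the lists are described by counts and medians and were not tested as sets.

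**Figure D5:**
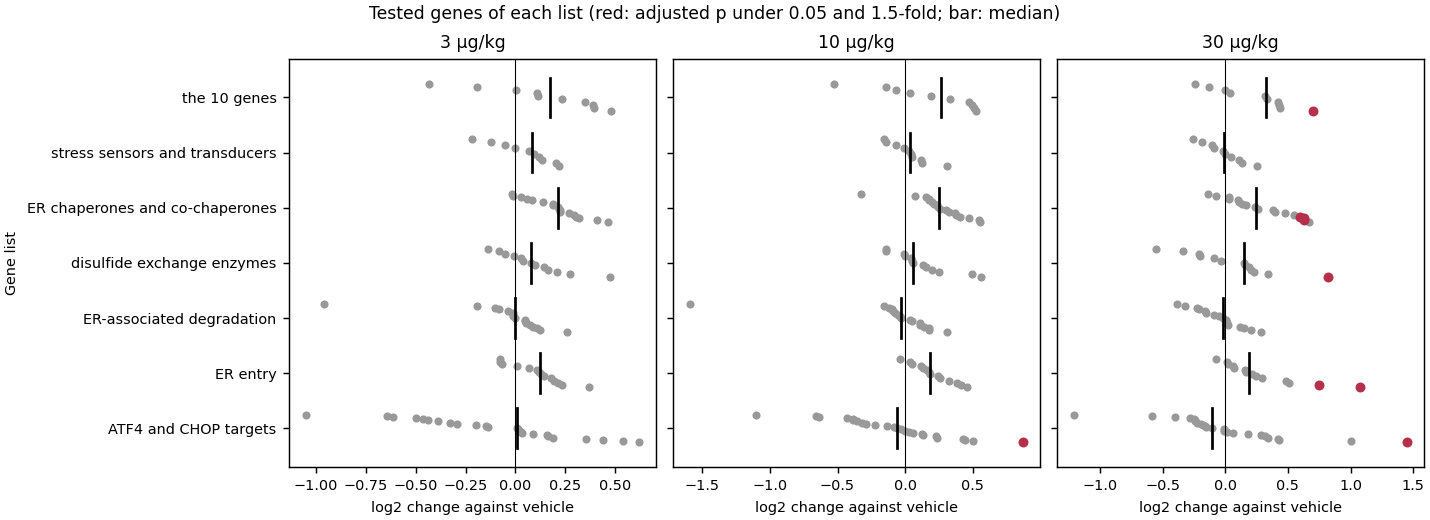
Log2 change against vehicle (x axes) of every tested gene of the 10 genes and of 6 lists (rows) at the low, middle and high doses. Points are genes, red where called, and bars are list medians. The chaperone medians lie at 0.22 to 0.25, and Nupr1 at 1.45 is the farthest point at the high dose.

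Markers of several secretory cell types were called higher at the high dose, as was Sdf2l1, where 3.08% of all genes were. Some of their sums also lay above vehicle at lower doses. The summed Paneth cell markers were at 695 to 1065 CPM in vehicle and 2207 to 2996 CPM at the high dose, with 6 of 7 tested called higher. The defining Paneth enzyme Lyz1 (lysozyme) changed by 1.76 log2 (SE 0.29, adjusted p = 0.00326). The enteroendocrine markers summed to 124 to 133 CPM in vehicle and 199 to 231 CPM at the high dose, with 5 of 6 called higher. The goblet cell markers summed to 12669 to 16590 CPM in vehicle and 16240 to 17691 CPM at the high dose, with 3 of 6 called higher. At the low and middle doses the enteroendocrine sums were above vehicle, at 143 to 154 and 147 to 175 CPM. The Paneth sum was above vehicle at the middle dose (1129 to 1534 CPM) and overlapped it at the low dose (716 to 1821 CPM). The goblet sums overlapped vehicle at both, and no marker of these cell types was called there. None of the 7 B and plasma cell markers tested was called, and their sum was 1191 to 2399 CPM in vehicle and 1514 to 1815 CPM at the high dose. Sums of lists that are not secretory also rose. From vehicle to the high dose, proliferation went from 202 to 241 CPM to 255 to 357 CPM. Stem went from 87.5 to 106 CPM to 142 to 178 CPM, and macrophage from 42.0 to 52.5 CPM to 61.8 to 68.4 CPM. T cell markers went from 200 to 225 CPM to 270 to 316 CPM, with 2 of 6 called higher. The enterocyte, tuft, smooth muscle and fibroblast sums overlapped vehicle there. The 7 pancreatic acinar markers summed to 11.5 to 15.6 CPM in vehicle and 17.6 to 30.9 CPM at the high dose, without overlap. Of the 3 that were tested, Clps was called higher (1.67, SE 0.35, adjusted p = 0.0153), and Ctrb1 (-2.14, SE 0.48, adjusted p = 0.0198) and Pnlip (-4.12, SE 0.64, adjusted p = 0.00372) were called lower. Of the untested ones, Prss2 and Amy2b were at 0 in all high dose libraries. At the middle dose the proliferation (296 to 390 CPM), stem (111 to 164 CPM), T (267 to 337 CPM) and tuft (44.3 to 54.4 CPM) sums lay above vehicle. The enterocyte, smooth muscle and fibroblast sums lay below vehicle at that dose, and the macrophage sum overlapped it. The high dose libraries also stood apart in the reads left out of the gene counts. Reads in no gene were at most 25.4% of all entries there and 28.0% to 30.1% in the other groups, and reads aligned at several places were 36.2% to 38.8% against 31.4% to 34.6%. The part of these cell types and read classes in the changes of Sdf2l1, Calr, Manf, Fkbp2, Agr2, Sec61b, Sec61g and Nupr1 was not tested. Nor was their part in the values of Hspa5, Hsp90b1, Pdia4 and Pdia6 at any dose.

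Neighbouring doses were also compared. Between the middle and low doses 0 of the 10 genes were called, where 0.158% of all genes were, and between the high and middle doses 0 were called, where 2.77% were. The unadjusted p was above 0.05 for every one of the 10 genes in both comparisons. For Sdf2l1 the log2 difference was 0.16 (SE 0.11, adjusted p = 1.00) between the middle and low doses and 0.20 (SE 0.11, adjusted p = 0.351) between the high and middle doses. For Herpud1 it was 0.95 (SE 0.50, adjusted p = 0.298) between the high and middle doses, where the groups did not overlap, as for 14.7% of all genes in that direction, and the clock scores differed as given above.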

How the data were processed

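RNA-seq was performed on 12 libraries, 3 per group, from total RNA with a NuGen Ovation kit and an added DNase step. The authors deposited 1 table of unnormalised read counts by Ensembl gene for each library, made with HTSeq on GRCm38. The submitters' processing notes list FastQC 0.11.3, Trimmomatic 0.33, TopHat2 2.1.0, SAMtools 1.2.0, HTSeq 0.6.1 and DESeq. The annotation release and the strand setting are not given in the sources used here. Reads that fell in no gene, in several genes or at several places were deposited as separate entries, 60.3% to 64.6% of all entries per library, and were left out.

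Identifiers were matched to GENCODE M21 (45229 of 46078 genes; the rest held 0.749% of counts), which also gave exon lengths and overlaps. Counts were tested with edgeR 4.0.16 (filterByExpr, TMM scaling, quasi-likelihood F tests, 1 model of 4 groups) in R 4.3.3, with BH adjustment over 15823 genes. CPM values use TMM-scaled library sizes, and the SE comes from the F statistic. Log2 CPM used a prior count of 2. The code was tested on simulated data. Replicates were numbered in accession order. All 10 genes are named, as are called genes of 6 pathway lists (at most 5 a list), the 10 genes most like Hspa5, and Cyp1a1 and Cyp1b1 as the dose check; markers are named as checks of the tissue. The genes, lists and tests were chosen with earlier results of these data known. Alternatives were median-of-ratios scaling, other filters, DESeq2 1.42.0, limma-voom 3.58.1, the clock score as a covariate, a length and GC correction, compared groups alone and leaving out each library.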

Additional observations from a re-analysis of the deposited data

How the results depend on the processing

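No paired analysis was possible because the labels give no replicate numbers. The calls among the 10 genes, 0 at the low dose, 0 at the middle dose, 1 at the high dose and 1 for the dose trend, were the same in all 12 fits that left out a library. They were also the same in every other setting but the length and GC correction, alone or with the clock score (this pair added after seeing the data), which each gave 0 at the high dose and 0 for the trend. There Sdf2l1 was at 0.54 in both at the high dose, and at 0.52 in both for the trend. The number of all genes called at the low dose, 36, became 71 with no filter, 23 with at least 10 counts in every library, 84 with DESeq2 and 6 with the compared groups alone, and ran from 19 to 162 when a library was left out, highest without low dose replicate 1. The 97 at the middle dose became 215 with no filter and 262 with DESeq2, and ran from 45 (without vehicle replicate 2) to 198 (without low dose replicate 1). When a library was left out, the 520 for the trend ran from 297 (without high dose replicate 3) to 640, and the 628 at the high dose from 433 to 768. In the other settings the trend ran from 493 (length and GC correction) to 722 (DESeq2). The high dose ran there from 538 (length and GC correction) to 879 (clock score). DESeq2 gave an adjusted p under 0.05 for Hsp90b1 at the low dose (0.0214) and for Hspa5 (0.00957), Hsp90b1 (0.0058) and Sdf2l1 (0.0134) at the middle dose, all under 1.5-fold. At the middle dose Hspa5 also passed with no filter (0.0479) and the clock score (0.047), and Hsp90b1 with no filter (0.0362). With the clock score and the length and GC correction Hsp90b1 passed at the high dose (0.0283). The Hspa5 trend passed with DESeq2 (0.0495), the length and GC correction (0.0369) and that with the clock score (0.02). With the clock score 2 of the 25 ATF4 and CHOP targets were called at the high dose, where 5.56% of all genes were. Signs changed only for uncalled values near 0 and for Herpud1 at the middle dose, at 0.0583 with the clock score and 0.0601 with both corrections. Atf4 at the low dose was -0.0045 with median-of-ratios scaling, -0.0098 with no filter, -0.0257 with at least 10 counts, -0.0044 with DESeq2 and -0.0174 with the clock score, and ran from -0.106 to 0.0803 when a library was left out. Dnajb9 at the middle dose was -0.0809 with the length and GC correction. Xbp1 at the high dose was 0.0092 with limma-voom, 0.0116 with the clock score and 0.0009 with the compared groups alone, and its trend was -0.0005 with the length and GC correction. With a library left out, Atf4 at the middle dose ran from -0.156 to 0.0308, Dnajb9 from -0.155 to 0.183 at the middle dose and from -0.0823 to 0.185 at the high dose, and Xbp1 from -0.0829 to 0.145 at the high dose and from -0.0528 to 0.124 for the trend. Settings for the remaining results were added after seeing the data. Between neighbouring doses 0 of the 10 genes were called in every setting. The test of any difference passed 3 of the 10 with no filter, 3 with the clock score, 2 with the clock score and the length and GC correction, and from 0 (without vehicle replicate 2) to 4 (without low dose replicate 1) when a library was left out. The clock score term kept an adjusted p under 0.05 in 12 of 12 fits without a library for Herpud1 (0.29 to 0.39) and Dnajb9 (0.12 to 0.14) but in 4 of 12 for Xbp1 (-0.08 to -0.06). For genes that did not pass, it ran from -0.0349 to 0.0005 in Atf4, -0.0261 to 0.0269 in Hsp90b1, -0.0005 to 0.0325 in Hspa5, -0.0498 to 0.021 in Pdia4 and -0.067 to 0.023 in Pdia6. Causes were not tested. The lowest count of the 10 genes in any library was 111.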
